A study of Mus musculus with 32 samples.

Results

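The 9 genes described here are markers of red cell production that were taken by name: the adult beta globin genes Hbb-bs and Hbb-bt, the adult alpha globin genes Hba-a1 and Hba-a2, Alas2, Slc4a1, Epor, Gata1 and Klf1. Their symbols were matched to the Ensembl identifiers of the deposited tables through GENCODE release M21 of the mouse genome build mm10, and all 9 were found among the 25059 genes of the RNA tables. The rule lists them by name and applies no cut on a measured value. The study mapped cisplatin DNA adducts with Damage-seq, their excision with XR-seq and messenger RNA with RNA-seq in kidney, liver, lung and spleen. Female C57BL/6J mice of 6 to 7 months received 10 mg/kg cisplatin into the peritoneum at zeitgeber time ZT1 (hours after lights on), and organs were taken at ZT5. The interval in the protocol is 4 h, whereas a label of each sample gives 2 h. RNA-seq covered saline controls and cisplatin-treated animals with 2 libraries for each organ and treatment, 16 in all. Damage-seq and XR-seq covered cisplatin-treated animals only, with 2 libraries per organ and 8 per assay, and untreated samples of these assays were not analysed here.

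Red cells form from erythroid progenitors, in the adult mouse in bone marrow and also in the red pulp of the spleen. Erythropoietin acts through its receptor Epor, and the transcription factors Gata1 and Klf1 switch on globin, heme synthesis and membrane genes. Maturing cells lose the nucleus and circulate as reticulocytes that still carry globin RNA but no DNA, so RNA of the globin genes can be found in any organ that holds blood. In Damage-seq and XR-seq, cisplatin adducts at GG dinucleotides are read on the transcribed strand (TS), the template of the polymerase, and on the non-transcribed strand (NTS); stalled polymerases recruit repair to the TS.

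The adult globin genes are near copies of each other, which limits what short reads can say about each. Exon 2 is printed once for each pair because Hba-a1 and Hba-a2 are identical over all 205 bases of it, and Hbb-bs and Hbb-bt over all 223 bases. The sequence is that of the mRNA strand in build GRCm38.p6 (the same primary sequence as mm10), and capitals mark GG dinucleotides, the sites at which cisplatin forms its main intrastrand adduct.
Hba-a1 exon 2, chr11:32283924-32284128, plus strand: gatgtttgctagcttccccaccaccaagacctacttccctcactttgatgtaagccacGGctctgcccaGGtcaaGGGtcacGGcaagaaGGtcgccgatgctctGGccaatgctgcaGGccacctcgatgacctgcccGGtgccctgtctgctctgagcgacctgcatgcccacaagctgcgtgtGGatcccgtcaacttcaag
Hbb-bs exon 2, chr7:103827448-103827670, minus strand: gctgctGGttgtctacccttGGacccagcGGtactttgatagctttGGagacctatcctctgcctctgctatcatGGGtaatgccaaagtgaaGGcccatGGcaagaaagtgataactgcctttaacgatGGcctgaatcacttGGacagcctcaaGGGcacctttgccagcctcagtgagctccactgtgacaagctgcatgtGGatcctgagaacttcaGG
The Hba-a2 copy lies at chr11:32296741-32296945 on the plus strand and the Hbb-bt copy at chr7:103813439-103813661 on the minus strand. Exon 2 of the alpha genes holds 10 GG on the coding and 25 on the template strand, and that of the beta genes 14 and 18. Over the whole gene, 97.8% of the 26-base windows of Hba-a1 and 96.7% of those of Hba-a2 occurred more than once in the genome, against 71.5% for Hbb-bs and 76.0% for Hbb-bt. For the other 5 genes the share was between 0.894% (Epor) and 13.4% (Gata1).

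Promoters are shown for the genes whose RNA or repair readings are compared most below. RefSeq's 250 bases upstream of the start, GRCm38.p6, were matched for 8 of the 9 genes, all but Slc4a1, and capitals mark matches on either strand to GATAA, the core read by GATA factors, and to CACCC, the box read by Klf1, so that a match on the other strand appears as its reverse complement.
Hbb-bs promoter, chr7:103827929-103828178, minus strand: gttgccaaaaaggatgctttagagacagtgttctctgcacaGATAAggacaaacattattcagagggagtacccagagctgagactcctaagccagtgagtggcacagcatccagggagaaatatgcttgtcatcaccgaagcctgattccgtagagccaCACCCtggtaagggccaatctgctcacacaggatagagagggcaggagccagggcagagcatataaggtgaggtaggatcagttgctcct
Hba-a1 promoter, chr11:32283422-32283671, plus strand: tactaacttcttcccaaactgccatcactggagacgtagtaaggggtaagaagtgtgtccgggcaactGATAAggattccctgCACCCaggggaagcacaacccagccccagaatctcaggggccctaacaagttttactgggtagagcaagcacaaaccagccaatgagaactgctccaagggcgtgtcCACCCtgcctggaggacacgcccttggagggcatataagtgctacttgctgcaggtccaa
Alas2 promoter, chrX:150547167-150547416, plus strand: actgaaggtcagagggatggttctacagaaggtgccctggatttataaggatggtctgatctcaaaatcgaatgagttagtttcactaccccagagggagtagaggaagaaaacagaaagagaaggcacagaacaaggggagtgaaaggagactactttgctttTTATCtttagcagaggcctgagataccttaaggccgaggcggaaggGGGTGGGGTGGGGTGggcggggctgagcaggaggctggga
Klf1 promoter, chr8:84901732-84901981, plus strand: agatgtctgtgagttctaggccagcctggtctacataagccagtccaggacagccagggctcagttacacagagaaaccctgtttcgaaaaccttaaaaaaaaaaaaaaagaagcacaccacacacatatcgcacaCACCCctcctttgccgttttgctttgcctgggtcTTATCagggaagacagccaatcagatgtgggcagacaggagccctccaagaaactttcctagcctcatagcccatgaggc
GATAA was present in 7 of the 8 matched promoters, all but that of Gata1, and CACCC in 8 of 8. Of 32851 promoters of the same length, 22.6% held GATAA, 52.0% held CACCC and 10.1% held both. A match is a string of letters and says nothing of binding in these organs.

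Reads on genes ranged from 15619474 to 162270280 for the RNA libraries, from 10658675 to 59779770 for XR-seq and from 1571167 to 6441367 for Damage-seq, with a spleen library the shallowest in both DNA assays. The 2 lung control and the 2 spleen control RNA libraries varied by 2.75 and 2.98 times the counting variance, far less than the other RNA pairs. Each pair was summed and counted as 1 sample, so 14 RNA samples entered the tests. A lone control is assumed to vary like the other groups. The submitters exchanged the control and cisplatin labels of the lung and spleen RNA libraries after deposit, and the present labels are used, on which the sign of every cisplatin difference in those organs depends. Cdkn1a, the p53 target that marks the response to DNA damage, was higher in both cisplatin libraries than in both controls of every organ. It rose past the test in kidney, from 15.1 and 30.1 to 431 and 456 reads per 1000000 reads on genes (CPM). In spleen it read 13.2 and 13.3 CPM in the controls and 39.5 and 34.1 CPM after cisplatin, which did not pass. Digestive enzyme markers of pancreas, the organ that adjoins the spleen, summed over 7 genes to 2027 and 1537 CPM in the cisplatin spleen libraries and to 16.2 and 14.9 CPM in the spleen controls. The 5 liver markers summed to 373 CPM in cisplatin spleen replicate 1 and to 2.89 CPM in replicate 2.

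Globin RNA was abundant in spleen and lung and low in kidney and liver. Hbb-bs (ENSMUSG00000052305, chromosome 7, 103826534 to 103828096, minus strand), the major beta chain of adult hemoglobin in this strain, is given in RPKM, CPM per kilobase of exon. In spleen it read 9704 and 9330 RPKM in the controls and 17372 and 6523 RPKM after cisplatin. In lung it read 7724 and 7395 RPKM in the controls and 4047 and 3140 RPKM after cisplatin. Kidney libraries read 691 and 981 RPKM without and 707 and 915 RPKM with cisplatin, and liver libraries 269 and 761 RPKM without and 207 and 768 RPKM with it. Every spleen and lung library therefore lay above every kidney and liver library, the cisplatin spleen libraries lay on either side of the spleen controls, and both cisplatin lung libraries lay below the lung controls. Ranked by mean RPKM after cisplatin, Hbb-bs was number 2 of 25041 genes in spleen, 4 in lung, 27 in kidney and 94 in liver.

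The other adult chains followed the same order of organs. Hbb-bt (ENSMUSG00000073940, chromosome 7, 103812524 to 103813996, minus strand), the second adult beta chain gene, ranged from 1075 to 2688 RPKM in spleen, from 409 to 844 RPKM in lung and from 26.8 to 131 RPKM in kidney and liver. Hba-a1 (ENSMUSG00000069919, chromosome 11, 32283511 to 32284465, plus strand), an alpha chain gene, ranged from 1862 to 4515 RPKM in spleen, from 684 to 1854 RPKM in lung and from 46.0 to 244 RPKM in kidney and liver. Hba-a2 (ENSMUSG00000069917, chromosome 11, 32296489 to 32297298, plus strand), the second alpha chain gene, read 413 and 414 RPKM in the spleen controls and 1320 and 460 RPKM after cisplatin, with 157 to 253 RPKM in lung and 6.63 to 47.9 RPKM in kidney and liver. Cisplatin spleen replicate 1 had the highest value of all 16 libraries for each of the 4 chains, and liver replicate 1 of either treatment the lowest. The ratio of Hbb-bs to Hbb-bt RPKM lay between 6.05 and 10.2 and that of Hba-a1 to Hba-a2 between 3.42 and 8.86, but since the pairs share exon 2 the division of reads between partners is uncertain. Together the 4 chains took 1.98% and 0.758% of reads in the cisplatin spleen libraries, 1.09% and 1.04% in the spleen controls, 0.440% and 0.336% in cisplatin lung, 0.820% and 0.782% in control lung, and between 0.0220% and 0.107% in kidney and liver. In bulk RNA, fewer cells of a type and less RNA per cell cannot be told apart, and the blood held by each organ is part of these readings.

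Alas2 (ENSMUSG00000025270, chromosome X, 150547375 to 150570638, plus strand) encodes the erythroid enzyme that starts heme synthesis. Its levels in spleen were 152 and 150 RPKM in the controls and 198 and 97.9 RPKM after cisplatin. Lung libraries read 108 and 103 RPKM without and 66.9 and 48.9 RPKM with cisplatin, kidney libraries 10.9 and 18.0 without and 11.7 and 17.1 RPKM with it, and liver libraries 8.25 and 14.004 without and 5.58 and 10.3 RPKM with it. Alas2 thus had the organ order of the globin chains, with the spleen values after cisplatin again on either side of the controls. The gene lies wholly inside Apex2, a DNA repair gene on the opposite strand, so that reads of the pair can be told apart only where exon and strand allow it.

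Slc4a1 (ENSMUSG00000006574, chromosome 11, 102348824 to 102366203, minus strand) encodes band 3, the anion exchanger of the red cell membrane, of which acid-secreting cells of the kidney make a shorter form. Spleen libraries read 39.0 and 38.2 RPKM in the controls and 24.3 and 9.55 RPKM after cisplatin. Kidney libraries read 17.5 and 21.7 RPKM without and 12.6 and 15.4 RPKM with cisplatin, the latter inside the range of the cisplatin spleen. Lung libraries read 1.85 and 1.65 RPKM without and 0.880 and 0.635 RPKM with it, and no liver library exceeded 0.280 RPKM. Slc4a1 therefore departed from the globin order: kidney lay within the spleen range after cisplatin and below both spleen controls without it, and lung was low. The ratio of Slc4a1 to Alas2 RPKM was between 0.900 and 1.61 in the 4 kidney libraries, between 0.0976 and 0.257 in spleen and between 0.0107 and 0.0350 in lung and liver.

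Epor (ENSMUSG00000006235, chromosome 9, 21958897 to 21963506, minus strand), the erythropoietin receptor, was the most evenly spread of the 9 genes. It read 8.21 and 7.89 RPKM in the spleen controls and 5.04 and 2.72 RPKM after cisplatin. Kidney lay between 1.98 and 3.01 RPKM, lung between 1.27 and 2.39 RPKM and liver between 0.401 and 0.749 RPKM. Cisplatin spleen replicate 2 fell within the kidney range, and the ranges of kidney and lung overlapped.

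Gata1 (ENSMUSG00000031162, chromosome X, 7959260 to 7978071, minus strand), the GATA factor of red cells, megakaryocytes and mast cells, was close to a spleen gene in these organs. Spleen libraries held 941 and 1887 reads in the controls and 434 and 485 reads after cisplatin, that is 9.97 and 9.12 RPKM against 4.84 and 2.28 RPKM. Lung libraries held 28 and 85 reads without and 62 and 133 reads with cisplatin, or 0.336 to 0.493 RPKM. Liver libraries held 0 to 4 reads. In kidney 3 of the 4 libraries held 0 reads and cisplatin replicate 2 held 2, all under the 3 reads that a count of 0 allows.

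Klf1 (ENSMUSG00000054191, chromosome 8, 84901928 to 84905291, plus strand), the factor that binds the CACCC box of the beta globin promoter, had an order of its own. Spleen libraries read 16.6 and 17.7 RPKM in the controls and 6.07 and 1.12 RPKM after cisplatin. Liver libraries followed with 3.10 and 1.82 RPKM without and 2.03 and 3.48 RPKM with cisplatin, and kidney lay between 1.16 and 2.00 RPKM. Lung, rich in globin RNA, held the least Klf1, at 0.0709 to 0.127 RPKM from 3 to 22 reads. After cisplatin, spleen replicate 2 lay below all 4 liver libraries and all 4 kidney libraries.

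**Figure D1:**
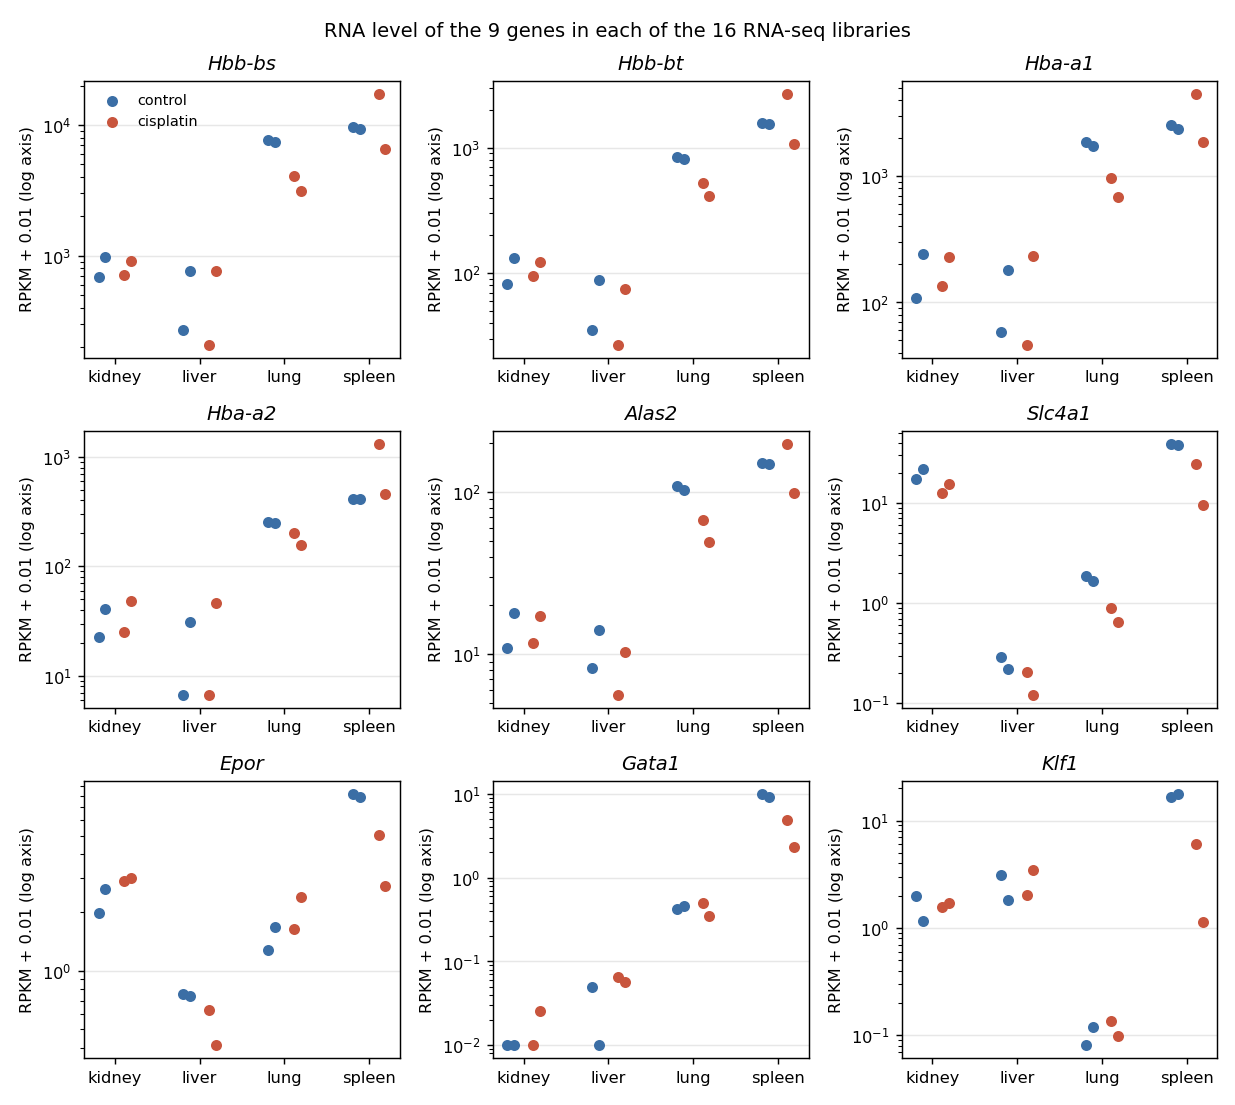
RNA level of each of the 9 genes in RPKM, with a small constant added so that 0 can be drawn, on a log axis, one point per library, by organ and treatment. The globin chains and Alas2 are high in spleen and lung, Slc4a1 in spleen and kidney, Gata1 in spleen, and Klf1 is lowest in lung.

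The correlation of Hbb-bs over the 14 RNA samples, on log2(CPM + 1), gives the same grouping as a description. Pearson's r of Hbb-bs was 0.996 with Hbb-bt, 0.995 with Hba-a1, 0.990 with Alas2 and 0.988 with Hba-a2, against 0.825 with Gata1, 0.678 with Epor, 0.443 with Slc4a1 and 0.0440 with Klf1. Genes of the red cell and cell marker lists used below were left out of the ranking of other genes. Among the rest of the 14888 genes, the closest to Hbb-bs were Bmyc at 0.975 and Cpxm1 at 0.973. Both lay below all 3 other chains and Alas2. With the same genes left out, those most like Klf1 were Syce2 at 0.838 and Slc40a1, the iron exporter ferroportin, at 0.813. Both were closer than any of the other 8 genes, of which Gata1 came nearest at 0.509. The samples of an organ share most of what sets these values, so the 14 points are not independent.

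Spleen against the other organs asked where the red cell program is read out. After cisplatin, all 9 genes were higher in spleen than in the mean of kidney, liver and lung by edgeR's quasi-likelihood test, which asked for a change beyond 0.4 on the log2 scale and was adjusted by Benjamini-Hochberg over all 19100 genes tested. Of all those genes 26.5% were higher and 20.9% lower. The log2 differences were 2.93 ± 0.60 (SE) for Hbb-bs, 3.30 ± 0.50 for Hbb-bt, 3.04 ± 0.64 for Hba-a1, 3.50 ± 0.70 for Hba-a2 and 2.51 ± 0.39 for Alas2. Slc4a1 differed by 3.43 ± 0.29 and Gata1 by 5.35 ± 0.52, a value that leans on kidney counts near 0. Smaller differences were found for Klf1, 1.74 ± 0.52 (adjusted p = 0.0237 by edgeR's quasi-likelihood test), and for Epor, 0.99 ± 0.30 (adjusted p = 0.0414 by the same test). Both calls rest on cisplatin spleen replicate 1: without it Klf1 differed by 0.05 (adjusted p = 0.977) and Epor by 0.46 (adjusted p = 0.480), and DESeq2 called 7 of the 9 genes, not these 2. Epor also lost its call without kidney replicate 1 or 2, liver replicate 2 or lung replicate 1, and Klf1 without lung replicate 2, all after cisplatin, at log2 differences of 0.90 to 0.98 and of 1.65.

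Each other organ was then set against spleen after cisplatin. Against kidney 6 of 9 were higher in spleen (24.8% of all genes), the 4 globin chains by 3.61 to 4.32 on the log2 scale, Alas2 by 3.08 ± 0.56 and Gata1, whose kidney counts give no usable fold. Slc4a1 did not differ detectably from kidney, at -0.00 ± 0.38, nor Epor at 0.12 or Klf1 at 0.86. Against liver 8 of 9 were higher (29% of all genes), among them Slc4a1 by 5.75 ± 0.49 and Epor by 1.87 ± 0.42. The exception was Klf1 at -0.78 ± 0.67. Its mean CPM, which unlike the fit is not scaled by TMM, was 5.51 in spleen and 4.21 in liver. The direction of the Klf1 difference is therefore not settled. Against lung 4 of 9 were higher (20.2% of all genes): Hbb-bt by 2.06 ± 0.70, Slc4a1 by 4.53 ± 0.44, Gata1 by 3.16 ± 0.63 and Klf1 by 5.14 ± 0.83. The largest of these differences from lung were those of the membrane gene and of Klf1, and 3 of the 4 globin chains did not pass. Kidney, liver and lung were not tested against each other.

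The same tests were made in control animals. All 9 genes were higher in control spleen than in the mean of the other control organs (24.1% of all genes; DESeq2 called 6), with Klf1 at 4.20 ± 0.64 and Epor at 2.13 ± 0.37. Against control lung 4 of 9 were higher (9.34% of all genes), Klf1 by 7.49 ± 1.26, Slc4a1 by 4.56 ± 0.62, Gata1 by 4.47 ± 0.93 and Epor by 2.42 ± 0.57, whereas the 4 globin chains differed by 0.40 to 0.98 and did not pass. Against control kidney 8 of 9 were higher (23.9% of all genes), all but Slc4a1, and against control liver 8 of 9 (28% of all genes), all but Klf1.

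**Figure D2:**
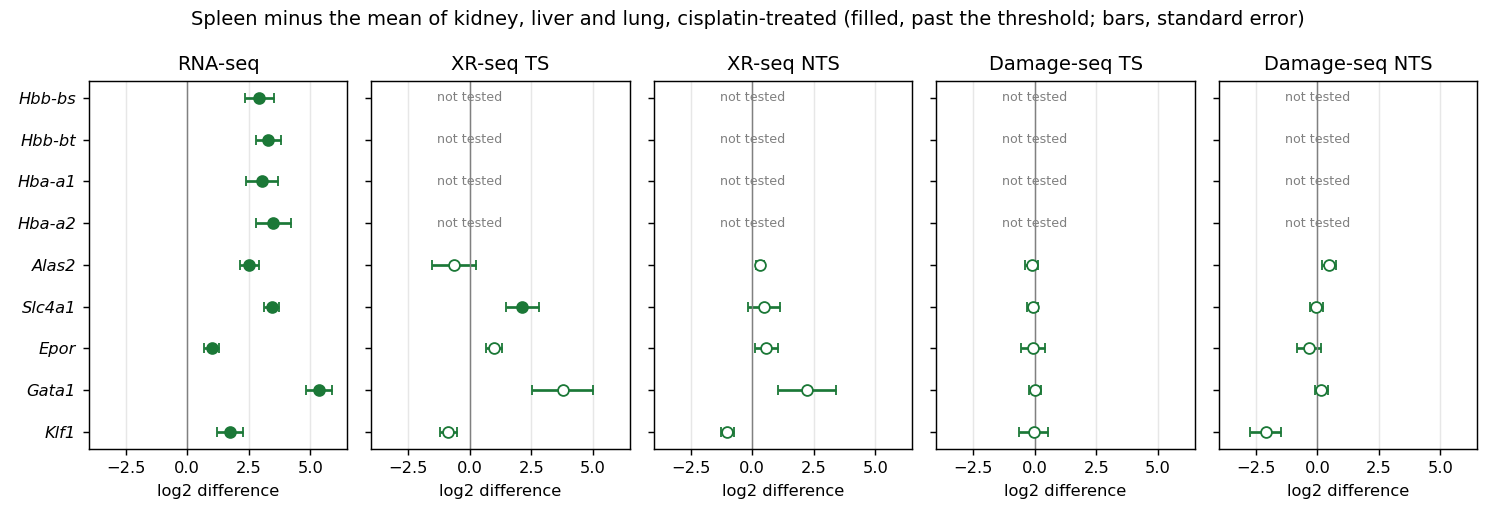
Log2 difference of spleen from the other organs for each gene with its SE, in RNA and in the TS and NTS reads of XR-seq and Damage-seq after cisplatin. RNA differences are all above 0, the Damage-seq TS differences lie near 0, and the globin chains have too few reads to be tested there.

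Other genes of the red cell program are given from lists that do not include the 9, in a test where 26.5% of all genes were higher and 20.9% lower. Of 14 other membrane and skeleton genes, 11 were higher and 1 lower in spleen after cisplatin, with a median log2 difference of 4.40 against 0.08 over all genes tested. The blood group antigen Rhd differed by 7.25, Ermap by 5.62, the ammonium channel Rhag by 5.52 and adducin Add2 by 5.20, and Dmtn, which bundles actin, was the lower one at -1.06. Of 12 other erythroid regulators, 9 were higher and 1 lower (median 2.54), including Hemgn at 6.91, Bcl11a, which represses fetal globin, at 6.53, and Myb at 4.86, with Gata2, the factor that precedes Gata1, lower at -1.20. Of 14 late erythroid genes 7 were higher and 1 lower (median 1.60), including Tspo2 at 5.55 and Bpgm, which makes the hemoglobin regulator 2,3-bisphosphoglycerate, at 2.24. The other 12 heme and iron genes went differently, with 1 higher and 5 lower (median -0.29): Slc25a37, the mitochondrial iron importer, was higher by 2.02, and the liver-type first enzyme Alas1 was lower at -3.28, Alad at -1.57, Urod at -1.18, Cpox at -1.12 and Uros at -0.71. Of 10 erythropoietin signalling genes, 4 were higher, including Pim1 at 2.13 and Jak2 at 1.50, and 2 lower, Cish at -2.28 and Bcl2l1 at -1.59. Markers of other spleen cells moved the same way: 7 of 7 tested megakaryocyte, 8 of 8 mast cell, basophil and eosinophil and 5 of 5 B cell genes were higher, with medians of 3.53, 4.87 and 7.11, and their part in the readings of Gata1 was not tested.

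Cisplatin against control asked whether 1 dose changed these RNAs within hours. None of the 9 genes passed edgeR's quasi-likelihood test in any organ, where the kidney test called 3.12% of 19100 genes, the liver test 2.71%, the lung test 0.366% and the spleen test 0.136%. DESeq2 called 0 of 9 in each organ as well, and at an unadjusted p under 0.05 there were 2 genes in spleen, 1 in lung and 0 in both other organs. The response also did not differ between organs by a test of the 4 responses together, which called 0 of 9 genes (0.209% of all genes, with 0 of the 9 at an unadjusted p under 0.05). With 1 summed control in lung and in spleen, the SEs of the 9 genes ranged from 0.45 to 1.13 in lung and from 0.45 to 1.21 in spleen on the log2 scale.

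In spleen 4 of the 9 genes, Slc4a1, Epor, Gata1 and Klf1, were lower in both cisplatin libraries than in both controls, as were 31.1% of all genes tested. Hba-a2 was higher in both, as were 27.3% of all genes, and the other 3 chains and Alas2 overlapped. Klf1 differed by -2.31 ± 0.77 on the log2 scale (unadjusted p = 0.0145, adjusted p = 1 by edgeR's quasi-likelihood test), Gata1 by -1.44 ± 0.67, Slc4a1 by -1.22 ± 0.45 (unadjusted p = 0.0320, adjusted p = 1 by the same test) and Epor by -1.08 ± 0.45. The globin chains differed by 0.25 to 1.07 with SEs of 0.84 to 1.21, and Alas2 by -0.06 ± 0.63. The 2 cisplatin spleen libraries were far apart: replicate 1 exceeded replicate 2 for all 9 genes, by 17372 to 6523 RPKM for Hbb-bs and 6.07 to 1.12 RPKM for Klf1. Pancreas markers were raised in both of these libraries and liver markers in replicate 1, and their part in these differences was not tested. None of the other erythroid lists held a called gene in spleen, and their median log2 differences were -1.59 for 14 membrane and skeleton genes, -0.62 for 14 late erythroid genes, -0.55 for 12 regulators and -0.58 for 12 heme and iron genes, against -0.03 over all genes.

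In lung, 6 of the 9 genes were lower in both cisplatin libraries than in both controls, namely the 4 chains, Alas2 and Slc4a1, as were 32.3% of all genes tested. None of the 9 was higher in both, against 32.6% of all genes. The 2 control libraries of lung and those of spleen, elsewhere counted as 1 sample, are taken singly in these counts. The differences were -1.07 ± 0.96 for Hbb-bs, -0.83 ± 0.81 for Hbb-bt, -1.10 ± 1.03 for Hba-a1, -0.48 ± 1.13 for Hba-a2, -0.86 ± 0.62 for Alas2 and -1.19 ± 0.45 for Slc4a1 (unadjusted p = 0.0381, adjusted p = 0.599 by edgeR's quasi-likelihood test). Epor, Gata1 and Klf1 overlapped between the treatments. The 5 B cell markers, another kind of blood cell, summed to 334 and 342 CPM in the lung controls and to 104 and 76.6 CPM after cisplatin, and their part in the globin readings was not tested.

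Kidney and liver gave mixed signs. In kidney Epor was higher and Slc4a1 lower in both cisplatin libraries, by 0.40 ± 0.39 and -0.43 ± 0.38, and 7 genes overlapped, where 22.5% of all genes were higher and 27.9% lower in both. The kidney globin chains differed by 0.01 to 0.25 with SEs of 0.68 to 0.95. In liver Slc4a1 and Epor were lower in both cisplatin libraries, by -0.72 ± 0.48 and -0.58 ± 0.42, Gata1 was higher on counts of 4 and 4 against 4 and 0, and 6 genes overlapped, where 15.3% of all genes were lower and 17.8% higher in both. Liver replicates of the same number lay closer to each other than to their own group for the globin chains, at 269 and 207 RPKM of Hbb-bs in replicate 1 and 761 and 768 RPKM in replicate 2.

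**Figure D3:**
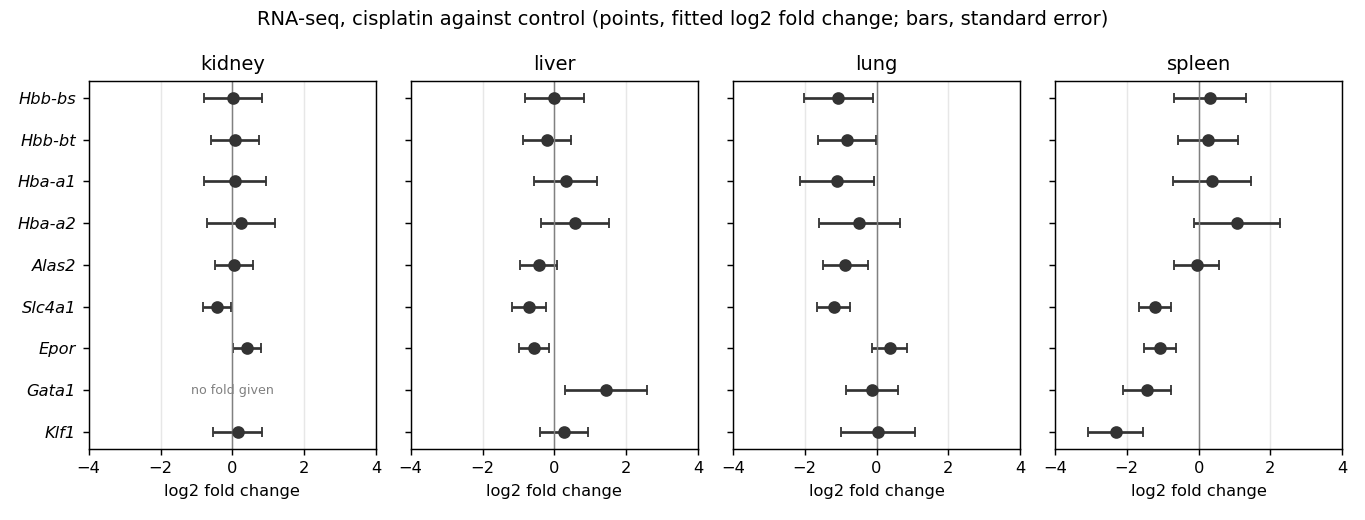
Log2 difference between cisplatin and control RNA for each gene in each organ, with bars of 1 SE. None of the values passed the test, with Klf1 in spleen the lowest at -2.31.

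XR-seq asked how far adducts in these genes were being excised in spleen compared with the other organs. Values are CPM per 1000 GG of the strand, so that genes of unlike length and GG content can be set side by side, and only 5 genes had enough TS reads to be tested. Of these 1, Slc4a1, was higher in spleen on the TS than in the mean of the other organs (9.44% of 19731 genes were higher, 10.1% lower). DESeq2 called 1 as well, but it was Gata1, and 3 genes had an unadjusted p under 0.05. Against kidney alone 0 of 5 genes passed on the TS (23.2% of genes in either direction), with 1 at an unadjusted p under 0.05. On the NTS 0 of 5 passed (7.78% of 19408 genes in either direction), with 1 gene, Klf1, at an unadjusted p under 0.05 and 0 by DESeq2.

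Slc4a1 held 22 and 203 TS reads in the spleen XR-seq libraries, with 37 and 58 for kidney, 65 and 55 for liver, and 24 and 5 for lung. Per 1000 GG this was 1.29 and 3.65 CPM in spleen, 1.25 and 1.29 in kidney, 0.768 and 0.814 in liver and 0.250 and 0.0731 CPM in lung. Lung was lowest in repair, whereas liver was lowest in Slc4a1 RNA, and spleen replicate 1 lay level with kidney. Spleen exceeded the other organs by 2.14 ± 0.66 on the log2 scale (adjusted p = 0.0464 by edgeR's quasi-likelihood test) and lung alone by 3.93 ± 0.99 (8.43% of genes were higher). The call was lost without spleen replicate 2 (1.16, adjusted p = 0.627), liver replicate 1 (2.14, adjusted p = 0.134), liver replicate 2 (2.15, adjusted p = 0.125) or lung replicate 2 (1.93, adjusted p = 0.104). Summed over both libraries, 75.0% of Slc4a1 reads in spleen were on the TS (Wilson 95% interval 69.8% to 79.6%, counting error only), against 39.7% in kidney, 56.6% in liver and 29.9% in lung. At the average number of reads per GG over all genes, Slc4a1 in spleen would have held 1086 TS and 137 NTS reads, against 225 and 75 counted. The TS to NTS ratio did not differ past the test, which called 0 of 5 genes (5.93% of all genes, with 0 of the 5 at an unadjusted p under 0.05).

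Gata1 gave 19 and 85 TS reads in spleen, with 23 and 40 for liver, 0 and 10 for lung, and 0 and 2 for kidney. That is 1.29 and 1.78 CPM per 1000 GG in spleen against 0.689 at most elsewhere, with no overlap. The difference of 3.77 ± 1.24 missed the threshold (adjusted p = 0.0513 by edgeR's quasi-likelihood test) and passed by DESeq2 (adjusted p = 0.0461). Epor was read at 21.9 and 21.1 CPM per 1000 GG in spleen, 18.7 and 15.8 in kidney, 11.4 and 13.2 in lung and 5.59 and 5.90 CPM in liver. Spleen was again the highest, by 0.97 ± 0.32 (adjusted p = 0.104 by edgeR's quasi-likelihood test), and exceeded liver by 1.64 ± 0.42 past the test (13% of genes were higher). The TS held most of the Epor reads in all 4 organs, 75.0% of reads on the TS in spleen, 73.2% in kidney, 67.3% in lung and 58.9% in liver. At the average number of reads per GG over all genes, Epor would have held 1729 TS and 276 NTS reads in the 8 libraries. It held 1440 and 648, so its TS share was below that of the average.

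Klf1 had most of its repair reads in liver. TS values were 84.2 and 79.2 CPM per 1000 GG in liver, 28.2 and 17.2 in kidney, 9.53 and 11.2 in spleen and 2.55 and 4.40 CPM in lung. Spleen lay 3.23 log2 units below liver, at -3.23 ± 0.43 (16.7% of genes were lower), and 1.63 ± 0.43 above lung, and both differences passed the test. NTS values were 56.3 and 67.2 CPM in liver, 30.96 and 25.2 in kidney, 14.7 and 9.17 in spleen and 13.2 and 10.6 CPM in lung, and spleen was below liver there too, at -2.06 ± 0.30 (6.95% of genes were lower). The TS held 48.4% of Klf1 reads in liver, 41.9% in spleen, 35.5% in kidney and 16.1% in lung, so the NTS held the larger number of reads in every organ, on 365 GG against 256 on the TS. Klf1 RNA after cisplatin was also lowest in lung, and read 2.03 and 3.48 RPKM in liver against 6.07 and 1.12 RPKM in spleen.

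Alas2 was read mostly on its NTS, which is the transcribed strand of Apex2 around it. NTS values lay between 16.03 and 27.2 CPM per 1000 GG in all 8 libraries, whereas TS values were 4.98 and 6.89 CPM in liver, 1.41 and 0.601 in kidney, 0.638 and 0.197 in lung and 0 and 1.65 CPM in spleen. The 0 in spleen replicate 1 comes from the shallowest library, in which 242 NTS reads were counted. Apex2 itself had between 83.0% and 95.5% of its reads on its TS in the organ sums. Spleen did not differ from the other organs on the Alas2 TS, at -0.63 ± 0.90, despite the RNA difference. The one called Alas2 difference was on the NTS against kidney, 0.91 ± 0.20 (5.78% of genes were higher). That fit scaled NTS reads alone, whereas the printed values use reads of both strands. Mean printed values were 21.5 CPM per 1000 GG in spleen and 17.2 in kidney, a smaller difference than the fitted one. The call was not repeated with library sizes over both strands.

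The other red cell lists were read in TS repair as well, where 9.44% of all genes tested were higher in spleen and 10.1% lower. Of 14 other membrane and skeleton genes 7 were higher in spleen and none lower, with a median log2 difference of 2.29 against 0.02 over all genes tested. Rhag differed by 4.43 ± 1.16, Rhd by 2.64 ± 0.48, Add2 by 2.38 ± 0.39 and ankyrin Ank1 by 1.72 ± 0.20. Of 12 other regulators 5 were higher (median 0.84): Bcl11a at 4.59 ± 0.21, Gfi1b at 3.66 ± 0.78, Myb at 3.55 ± 0.67, Runx1, which also acts in lymphocytes and platelets, at 3.25 ± 0.09, and Lmo2 at 1.27 ± 0.26. Late erythroid genes gave 2 higher, including Trim58, and 1 lower, the carbonic anhydrase Car2, of 14 (median 0.30), close to the shares of all genes. None of the 12 other heme and iron genes and none of the 10 erythropoietin signalling genes passed, with medians of 0.18 and -0.05. The B cell markers, which are not red cell genes, were higher too, 4 of 5 with a median of 4.99.

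**Figure D4:**
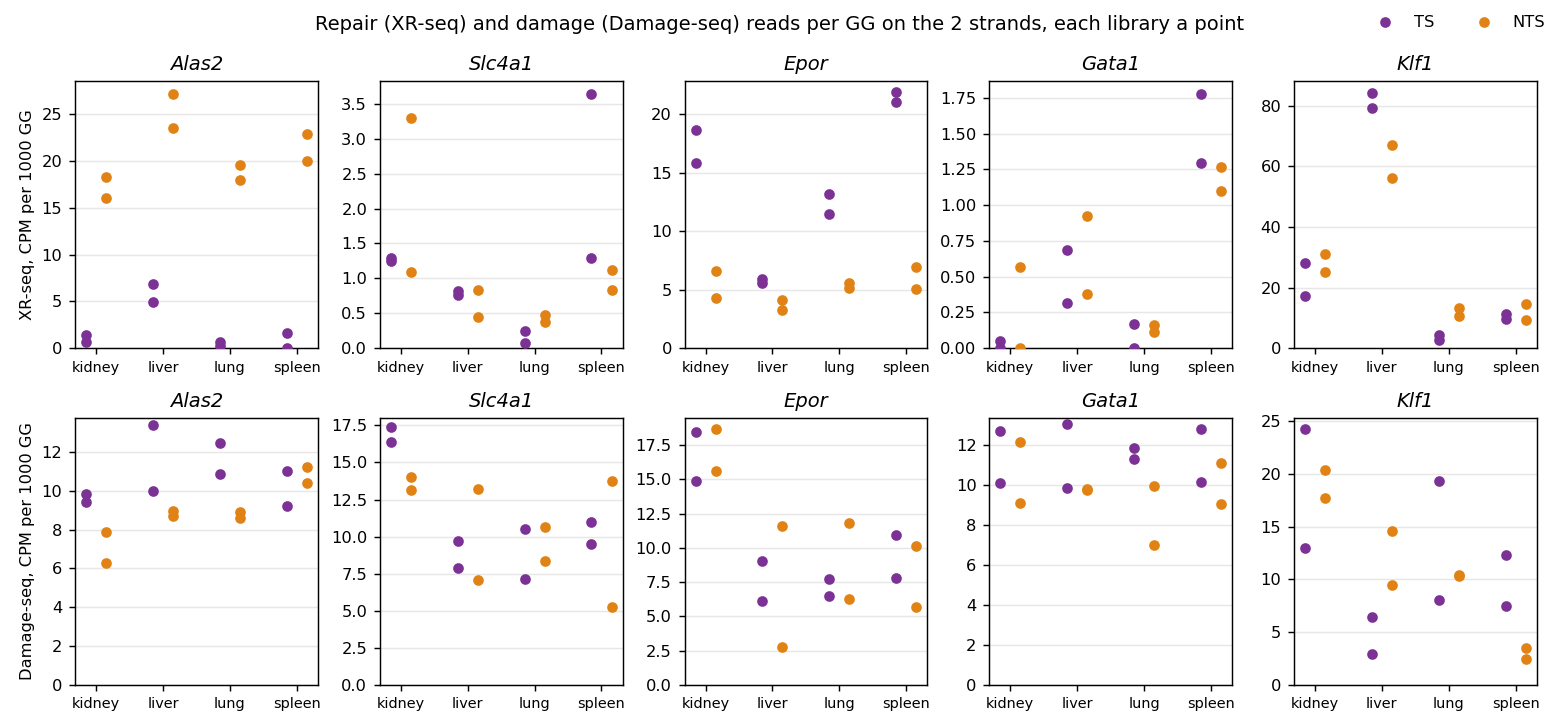
TS and NTS values of XR-seq and Damage-seq in CPM per 1000 GG for the 5 genes with enough reads, one point per library by organ. Klf1 XR-seq is highest in liver on both strands, Slc4a1 and Gata1 TS repair is highest in spleen replicate 2, and Klf1 Damage-seq reads on the NTS are lowest in spleen.

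Adducts in the same 5 genes gave almost no called difference. Damage-seq called 0 of 5 genes in spleen against the other organs on the TS (0.0506% of 19759 genes) and 0 on the NTS (0.00494% of 20262 genes), with 0 and 1 at an unadjusted p under 0.05 and 0 on each by DESeq2. TS differences lay between -0.13 and 0.01 on the log2 scale with SEs of 0.24 to 0.59. Gata1 TS values lay between 9.88 and 13.1 CPM per 1000 GG and those of Alas2 between 9.22 and 13.4 CPM over the 8 libraries. Slc4a1 read 17.4 and 16.4 CPM in kidney and between 7.13 and 11.0 CPM elsewhere, with spleen at 9.52 and 11.0. Klf1 was the 1 gene past the unadjusted threshold, on the NTS at -2.09 ± 0.63, from 2 and 2 reads in spleen against 48 and 37 (kidney), 14 and 13 (liver) and 20 and 23 (lung). Against kidney alone this difference passed the test, at -2.57 ± 0.64 (adjusted p = 0.0408 by edgeR's quasi-likelihood test, where 0.903% of genes were lower), and it rests on 4 spleen reads. The TS to NTS ratio of Damage-seq called 0 of 5 genes (0.941% of all genes, with 1 at an unadjusted p under 0.05, Klf1 at 2.16 ± 0.92).

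The 4 adult globin chains, whose RNA ranked near the top in spleen, were close to empty in both DNA assays. In XR-seq, Hbb-bs had 17 TS reads, all in spleen replicate 2, Hbb-bt had 2 in the same library, and Hba-a1 and Hba-a2 had 0 in all 8 libraries. Hba-a1 had 3 NTS reads in liver replicate 2 and the other chains had none. An exact permutation test of spleen against the 6 other libraries, two-sided over 28 splits, gave p = 0.500 for the TS of Hbb-bs and p = 0.500 for that of Hbb-bt, in a design whose smallest two-sided p is 0.0714. With reads in 1 library only, that p is fixed whatever their number, so the test cannot decide whether spleen differs. Of the 100 genes with the highest spleen RPKM, 96 remained without the 4 chains, and 18 and 11 of these held 0 TS reads in spleen replicates 1 and 2. The 15 of them that had 50 to 150 GG on the TS held a median of 46 and 94 TS reads, and 2 and 0 were at 0.

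The 4 chains hold much repeated sequence, and its part in this result was not tested. Before any scaling for repeats, XR-seq TS reads over the average per GG were 0 to 0.0374 for the chains. They were 0.0306 for Gata1, 0.0688 for Slc4a1 and 0.164 to 2.26 for Alas2, Epor and Klf1. At the average number of TS reads per GG over all genes, Hbb-bs would have held 454.5 XR-seq reads over the 8 libraries, and 130 when scaled to its share of 26-base windows found once in the genome. In spleen alone the scaled value was 20.7 against the 17 reads counted, and in kidney, liver and lung it was 20.3, 41.3 and 47.4 against 0. For Hbb-bt the scaled value was 15.0 in spleen and 93.9 over all libraries, against the same 2 reads. For Hba-a1 and Hba-a2 the scaled values over all libraries were 8.59 and 11.0 against 0. The same counts for the embryonic genes Hbb-y and Hbb-bh1 of the beta cluster were 13 and 1 TS reads, where 238 and 255 would have matched the average. Genes beside the alpha cluster were not empty, with 44562 TS reads for Nprl3, which holds the distant enhancers of the alpha genes, 39255 for Rhbdf1 and 7979 for Mpg.

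Damage-seq, with its longer reads, gave 13 TS reads for Hbb-bs against 27.8 at the average per GG and 9.13 after scaling to 50-base windows found once, a ratio of 1.42, and on the NTS 7 reads against 9.45 after scaling, a ratio of 0.741. With the same scaling, Alas2, Slc4a1, Epor, Gata1 and Klf1 had ratios of 1.40 to 1.83 on the TS and 0.927 to 1.48 on the NTS. Hbb-bt had 3 TS reads against 6.84 after scaling, and Hba-a1 and Hba-a2 had 0 against 1.35 and 1.33. In the same genes XR-seq ratios on the TS to the average were unalike, at 2.26 for Klf1, 0.833 for Epor, 0.164 for Alas2, 0.0688 for Slc4a1 and 0.0306 for Gata1. How the filter on mapping quality acted on each read of the globin genes was not tested.

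**Figure D5:**
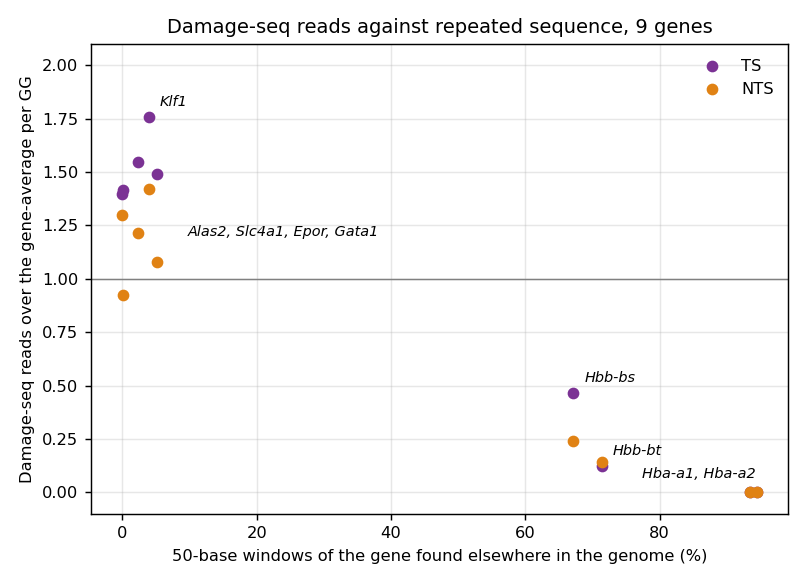
Damage-seq reads of the 9 genes relative to the average per GG against the percent of their 50-base windows that occur more than once in the genome. The 4 globin chains stand apart at 67.2% to 94.5% repeated with few or no reads, and the other 5 genes lie at 5.09% or less.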

How the data were processed

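The authors deposited whole-number read counts per gene. Damage-seq and XR-seq reads were trimmed (cutadapt), aligned to mm10 (BWA), deduplicated (Picard), filtered on mapping quality and GG position, and counted on TS and NTS. RNA-seq reads were aligned with STAR and counted with featureCounts. Versions are not given in the sources used here.

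The counts were fitted with edgeR 4.0.16 (R 4.3.3): TMM, filterByExpr, quasi-likelihood test for changes beyond 0.4 on the log2 scale, called at a Benjamini-Hochberg adjusted p of 0.05 over all genes. All RNA samples shared 1 fit. Within each DNA assay and strand the 8 libraries shared 1 fit, and TS to NTS ratios were fitted with each library as a block. These ratios, and the 4 cisplatin responses together, were tested against a log2 fold change of 0 and not of 0.4. The ratio fits used the same library size for both strands. DESeq2 1.42.0 was an alternative. SE is the log2 change divided by the root of F. Lung control and spleen control RNA pairs were summed because their dispersion index (variance over counting variance) was 2.75 and 2.98, under the limit of 3. The other RNA pairs had 39.3 to 349. This rule was applied to RNA only. Damage-seq pairs had 1.43 to 3.11 and XR-seq pairs 7.26 to 32.7, and each of their libraries was kept as its own sample. The fits were tested on simulated data. GG and windows were counted on GRCm38.p6. Intervals cover counting error only, and p-values the spread between these samples. The other list genes named in the text were those with the largest changes past the test, with 131 of 133 list genes matched; a few more were named after their values were seen. The 9 genes, the lists and the tests were chosen with earlier results of these data known. Some genes of the lists are not reported here by name.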

Additional observations from a re-analysis of the deposited data

How the results depend on the processing

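Of 295 values that other settings gave for the 23 counts of called genes, 281 stayed within 1.5 times the reported count and 14 did not, all in XR-seq. The TS count higher in spleen, 1 as reported, was 0 with DESeq2 size factors, 2 without a filter on low counts and 3 against a log2 fold change of 0, and ranged from 0 to 3 when a library was left out. The TS count lower ranged from 0 to 1, the 1 being Alas2 without spleen replicate 2. On the NTS the count higher ranged from 0 to 1 (Gata1 without kidney replicate 2), and the count lower was 1 (Klf1) against a log2 fold change of 0, 1 with library sizes over both strands without TMM, and 0 to 1 with a library left out. Slc4a1 TS repair lost its call with DESeq2 size factors (adjusted p = 0.0501 by edgeR's quasi-likelihood test), by DESeq2 (adjusted p = 0.0708), with the block below and without liver replicate 1 or 2, lung replicate 2 or spleen replicate 2, and kept it under the other settings, with an adjusted p down to 0.0139. The cause of these changes was not tested.

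The labels tie no replicate number to an animal or batch. Same-numbered RNA samples deviated together in 3 organs, at correlations of 0.413 (kidney), 0.293 (liver) and 0.391 (spleen), but hardly in lung, at 0.0880, so pairing was not taken as shown. The lung controls varied by less than 3 times the counting variance, as did the spleen controls, which limits this check in both organs. With the number as a replicate block, the RNA counts stayed at 0 of 9 in each organ and 9 of 9 in spleen against the others. All genes called by cisplatin rose to 2009 (kidney), 1501 (liver), 1014 (lung) and 118 (spleen). In this fit each library was its own sample, including the lung and spleen control pairs that were summed elsewhere. For lung and spleen, the part of the block and that of the unsummed controls in this rise cannot be told apart. In XR-seq the block left the TS count at 1 but replaced Slc4a1 (adjusted p = 0.0866) with Gata1 (adjusted p = 0.0334, both by edgeR's quasi-likelihood test).

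Signs turned only when a library was left out, in none of these cases past the threshold. In liver cisplatin against control, Hbb-bs ranged from -1.62 to 1.12, Hbb-bt from -1.50 to 0.76, Hba-a1 from -1.69 to 1.52, Hba-a2 from -1.82 to 2.29, Alas2 from -1.28 to 0.14 and Klf1 from -0.50 to 0.76 on the log2 scale. In kidney Gata1 ranged from 0 to 4.49 on 2 reads. In spleen against the other organs, the XR-seq TS to NTS ratio of Alas2 ranged from -8.91 to 0.19, the Damage-seq NTS of Epor from -0.83 to 0.18 and of Slc4a1 from -0.95 to 0.40, and the Damage-seq ratio of Slc4a1 from -0.35 to 0.83. An uncalled value that crossed 0 by less than its SE counted as unchanged.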
